A study of Mus musculus with 39 samples.

Results

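The livers described here are those of the Ctrl mice, which had no aggressor in their sessions, in all regimen and rest groups of a mouse stress study. They were selected by the group named in the sample labels, which gave 18 of the 39 livers, the other 21 being from aggressor-exposed (AggE) mice. All were male C57BL/6J mice, 5 to 6 wks old at the start and singly housed. Each Ctrl mouse had a sham session of 6 hrs a day in a cage within a cage, without food, with fresh bedding and without an aggressor, for 5 or 10 days. Livers were taken 24 hrs after 5 sessions (4 mice), 24 hrs after 10 sessions (4 mice), 1.5 wks after 5 sessions (4 mice) and 4 wks after 10 sessions (6 mice). These groups are written below as 24 hrs post-5-day, 24 hrs post-10-day, 1.5 wks post-5-day and 4 wks post-10-day. An hour before the terminal bleed, by the paper, mice spent a short test behind a partition in the cage of an aggressor. The paper places each subject mouse there and does not state that Ctrl mice were included. Whether the livers here came from mice without any contact with such cues is therefore not known. Mice in the groups with a longer rest were also older at death, by the length of that rest, and none of the comparisons can tell the rest from age. AggE mice were used only for setting the same differences beside those of Ctrl mice.

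RNA of each whole liver was labeled with Cy5 and hybridized to 1 Whole Mouse Genome array with a Cy3-labeled reference RNA pooled from mouse cell lines, without a dye swap. Every value below is, unless stated otherwise, a gene's log2 ratio, liver over reference, so that 0 is the level of the reference and 1 is a level 2-fold higher. In RNA of a whole organ, fewer cells of a type and less RNA per cell cannot be told apart. By the file headers the Ctrl arrays lay on 5 slides scanned on 2 days. Slide 1 held the 4 Ctrl arrays at 24 hrs post-10-day and slide 2 the 4 at 24 hrs post-5-day, so that for these groups the slide and the group cannot be told apart. Slide 3 held mice 1 to 3 of the 1.5 wk group, slide 4 held mouse 4 of that group with mice 1 to 3 of the 4 wk group, and slide 5 held mice 4 to 6 of the 4 wk group. Slides 1 to 3 were scanned on one day (scan 1) and slides 4 and 5 on another (scan 2), so that all 4 wk livers were on scan 2 and all 24 hr livers on scan 1. Mouse 4 at 1.5 wks post-5-day has a title that carries a 10 where the titles of its group mates carry a 5. Its title also opens with HC, where those of all other Ctrl mice open with C. The description of this mouse gives the 5-day regimen with 1.5 wks of rest, and it was grouped by the description. It is also the only mouse of its group on slide 4 and scan 2. For that reason the results that rest on it are given with and without it.

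The liver makes most plasma proteins, disposes of ammonia through the urea cycle, breaks down amino acids and drugs, makes bile acids from cholesterol, and stores or releases fuel as feeding and fasting alternate. Hepatocytes, which do most of this work, divide rarely in the adult, while a pool of cell lines consists of dividing cells. Many liver genes are switched by transcription factors that sense fatty acids (PPARα), sterols (SREBF2), foreign compounds (CAR and PXR) or hormones. Levels of others follow the sex-dependent rhythm of growth hormone or the time of day.

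Signals in the liver channel differed between the groups before any gene was considered. The share of spots that the scanner software marked as well above background in Cy5 ranged from 25.3% to 31.0% at 24 hrs post-5-day, from 30.8% to 44.3% at 24 hrs post-10-day and from 46.1% to 70.4% at 4 wks post-10-day. At 1.5 wks post-5-day it was 18.6%, 24.5% and 20.4% in mice 1 to 3 and 40.9% in mouse 4. The 95th percentile of the Cy5 intensity ranged from 63.5 to 838 over the 18 arrays, and no Cy5 spot was saturated. The SD of the log2 ratios over genes was 0.89, 1.00 and 0.89 in the 1.5 wk mice of slide 3, against 1.03 to 1.17 in the remaining 15 arrays. Arrays of a group correlated with each other over genes at a mean r of 0.97 to 0.98 at 24 hrs post-5-day, 0.97 at 24 hrs post-10-day, 0.92 to 0.94 at 1.5 wks and 0.94 to 0.95 at 4 wks. The part that these differences in signal had in the gene results was not tested.

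**Figure D1:**
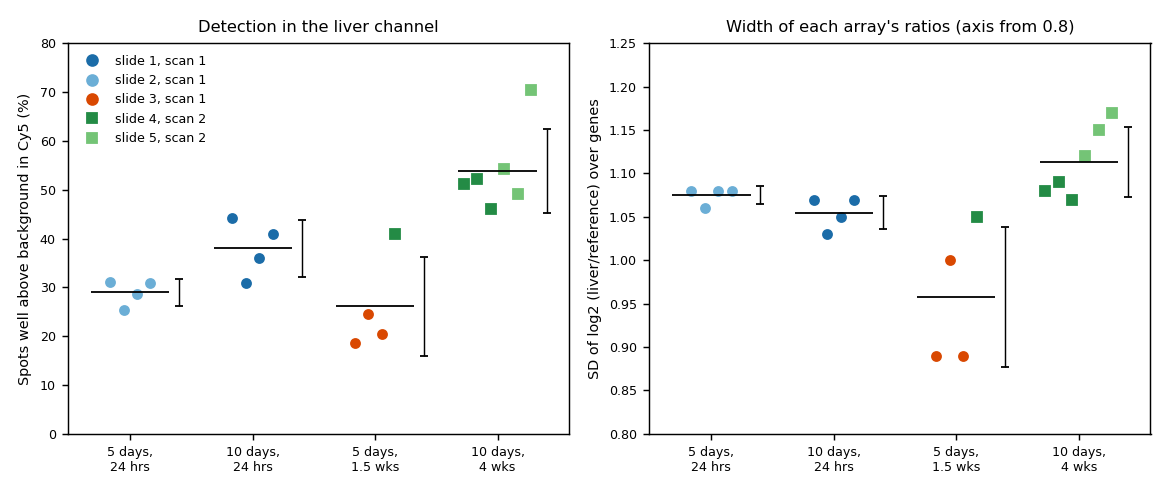
The 18 Ctrl arrays, 1 point per mouse, with the group mean as a line and the SD as an error bar. On the left is the share of spots well above background in Cy5 (%), which ran from 18.6% to 70.4%. On the right is the SD of the log2 ratios over genes (axis from 0.8), which was lowest, at 0.89, in 2 of the 1.5 wk livers of slide 3.

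Principal components of the log2 ratios set the groups apart. The first component, with 38.0% of the variance, was 24.87 to 62.20 in the 1.5 wk livers and -23.27 to -2.86 in the other 14. The second, with 20.8% of the variance, was 11.30 to 24.25 in the 8 livers taken at 24 hrs, -30.67 to -6.26 at 4 wks and -14.92 to 5.67 at 1.5 wks. On the first component mouse 4 at 1.5 wks was at 25.73, close to mouse 2 of its group at 24.87 and outside the range of every other group. On the second component the same mouse was at -14.92, within the range of the 4 wk livers and below its group mates at -5.92 to 5.67.

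**Figure D2:**
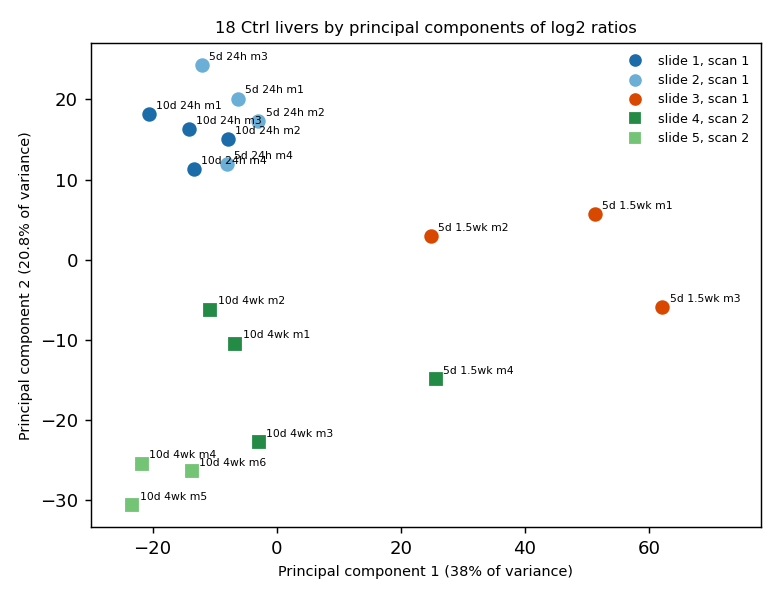
Scores of the 18 Ctrl livers on principal component 1 (38.0% of the variance) and component 2 (20.8%) of the log2 ratios, with color for slide and marker shape for scan. The 1.5 wk livers lie to the right of all others, at 24.87 or more, and the 4 wk livers lie below the 24 hr livers.

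The first question was what a Ctrl liver expressed relative to the reference. Of 17013 genes, 1005 (5.91%) were higher in liver by more than 2-fold (limma's treat against 2-fold, adjusted p of 0.05 or less) and 888 (5.22%) were lower. On each of the 18 arrays alone, 480 of the higher genes and 407 of the lower genes were past 2-fold. The dyes were never exchanged, and a dye effect on a gene cannot be told apart from its level in liver.

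Genes of hepatocyte function topped the ratios. Fabp1, which carries fatty acids in the hepatocyte, had the highest mean at 9.19, with a range over arrays of 8.35 to 10.01 (adjusted p = 2.06e-21). The major urinary proteins Mup5 (9.10) and Mup1 (8.96) followed, which bind pheromones and are secreted for excretion in urine. Members of the Mup family are nearly identical in sequence, so their probes may read each other's transcripts, which was not tested. Mup1 also lacks mouse 3 at 24 hrs post-10-day, where its spot was marked as an outlier. The next were Cyp2a5 (8.55), a cytochrome that oxidizes nicotine and coumarin, and Ambp (8.35), the precursor of α1-microglobulin and bikunin. Serpinc1, which encodes antithrombin, stood at 8.27 by its brightest probe and at 3.5 by another. Gc, the vitamin D carrier of plasma, was at 8.12, the protease inhibitor Mug1 at 8.02 and the retinol carrier Rbp4 at 7.95. The aldo-keto reductase Akr1c6 (7.89), the urate oxidase Uox (7.79, and 5.23 by a second probe), Apoc1 of lipoproteins (7.76), the fibrinogen chain Fgg (7.71), the heme carrier Hpx (7.59) and Cyp3a41a (7.46) completed the 15 highest. Over 33 other settings of the processing Fabp1 ran from 9.15 to 11.18, Akr1c6 from 7.81 to 10.64 and Fgg from 7.59 to 10.54. The ratios and their order are thus those of the main setting.

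At the other end S100a4, a calcium-binding protein of motile cells, had the lowest mean at -7.32, with a range over arrays of -7.89 to -6.22 (adjusted p = 1.07e-21). It was followed by S100a6 (-6.38), by the intermediate filament gene Vim of mesenchymal cells (-5.54) and by Spp1, the secreted phosphoprotein osteopontin (-5.51). Lgals1 (-4.99) and Lgals3 (-4.20) encode galectins, Scd2 (-4.61) is a fatty acid desaturase, Ndrg1 (-4.38) responds to hypoxia, Anxa1 (-4.31) binds phospholipids and Phgdh (-3.87) opens serine synthesis. These ratios also moved with the processing, S100a4 from -8.29 to -6.26 and Phgdh from -5.36 to -3.81 over 33 other settings. All 10 genes were well above background in the reference on every array. In liver Anxa1 was so on 1 of 4 arrays at 1.5 wks, and Scd2 on 3 of 4 at 24 hrs post-5-day and at 1.5 wks, so that those ratios rest partly on liver signal near background.

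The tissue matched its label. In the counts of this paragraph, higher and lower mean past 2-fold by limma's treat, as were 5.91% and 5.22% of all genes. All 15 measured hepatocyte markers were higher in liver than in the reference, with a median of 5.57, against -0.03 over all genes. So were all 26 measured plasma protein genes, with a median of 6.85, and 23 of 25 genes of the urea cycle and amino acid breakdown, with a median of 3.78. In the other direction, 17 of 24 cell cycle genes were lower (median -1.38), 27 of 30 genes of the cytosolic ribosome (median -2.23) and 8 of 16 markers of stellate cells and fibroblasts (median -1.31). Of 22 markers of Kupffer cells and leukocytes 5 were higher and 1 was lower, among them Clec4f, a lectin that marks Kupffer cells, at 3.5. Of the 12 endothelial markers 5 were higher. The neutrophil markers were mostly dark: 10 of 11 were not well above background on any array in each of the first 3 groups, and 1 of 11 at 4 wks. Of 11 pancreas markers, 10, 9, 8 and 0 were not well above background in the same order of groups. Xist, the RNA of the inactive X chromosome, was well above background on 0 of the 18 arrays. Of the 5 measured genes in the list of Xist and Y-linked genes, 0 were well above background on all 18 arrays and 0 were called against the reference. These probes therefore do not settle the sex of the mice, which is given by the paper.

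Between any of the Ctrl groups, 5738 genes (33.7% of 17013) differed by limma's F test (adjusted p of 0.05 or less). The count was 5823 without mouse 4 at 1.5 wks. Large ranges of group means were those of Grn, Cyp3a16, Cyp4a14 and Sucnr1, a receptor for succinate. Sucnr1 was at 4.98, 4.48, 5.32 and 4.85 in the livers at 24 hrs post-10-day and at 0.58, 0.69, 0.19 and 2.28 at 1.5 wks, which do not overlap.

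The number of sham sessions, compared at 24 hrs, gave 1 higher gene (0.00588% of 17013) and 0 lower genes after 10 days than after 5 days by limma's adjusted p, with 1153 genes at an unadjusted p under 0.05. Groups did not overlap for 1197 genes (7.04%). The called gene was Ang2, which here is a ribonuclease of the angiogenin family and not the vessel ligand angiopoietin 2. It was at 0.93, 0.88, 1.57 and 0.68 in the livers at 24 hrs post-5-day and at 3.57, 2.51, 3.08 and 2.57 at 24 hrs post-10-day. The groups did not overlap, and their difference was 1.92 ± 0.25 (SE, adjusted p = 0.015). By other groups, Ang2 was at 0.06, 0.24, 0.14 and 0.84 at 1.5 wks, where it was well above background in 1 of 4 livers, and at 2.50, 2.67, 2.42, 3.22, 2.65 and 2.78 at 4 wks. In AggE mice the same difference was 0.80 (adjusted p = 0.315). AggE livers at 24 hrs post-10-day were at 3.41 to 3.7 on a common slide and at 1.57 for mouse 5, on another slide. Those at 24 hrs post-5-day were at 1.9 to 3.21. AggE livers at 1.5 wks were at 2.39 for the mouse on scan 2 and at 0.06 to 0.54 on scan 1. The part of slide and scan in Ang2 was not tested. The sign was kept in 35 of 35 other settings, with differences of 1.14 to 2.39, but the call was lost in 12 of them, among these the scanner software's own processed signals (1.14, adjusted p = 0.8) and leaving out any of 5 single 24 hr livers. Angiogenins resemble each other in sequence, and each of these groups lies on a slide of its own. Without mouse 4 at 1.5 wks, which enters this comparison only through the shared estimate of the spread, 34 genes were called.

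Mup6 differed more between these groups than any called gene, but with a larger spread. It was at 3.45, 2.23, 3.49 and 2.42 after 5 days and at 7.14, 7.22, 6.34 and 6.17 after 10 days, without overlap. The difference of 3.82 had an adjusted p of 0.464 in the fit of the 18 livers, whose spread for Mup6 is set mostly by the 1.5 wk group. Within that group it was at 0.66, 0.84 and 0.67 in mice 1 to 3 and at 7.81 in mouse 4, and at 4 wks it ran from 7.30 to 8.42. In AggE mice the regimens differed by 4.63 (adjusted p = 0.0176). AggE livers at 24 hrs post-10-day stood at 7.05, 8.29, 7.84, 7.75 and 3.49, of which the last lies within the 1.46 to 3.63 of those at 24 hrs post-5-day. That last liver was on another slide than the others of its group. At 1.5 wks the AggE liver on scan 2 was at 6.47 and those on scan 1 at 0.82 to 1.64. The part of slide and scan in Mup6 was not tested.

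Far more genes differed between 24 hrs and 1.5 wks after the 5-day regimen. At 1.5 wks, 1201 genes were higher (7.06%) and 1233 lower (7.25%) than at 24 hrs by limma's adjusted p, and 625 of them differed by 2-fold or more, 239 higher and 386 lower. The split between higher and lower depended on the scaling, with 1388 and 666 without normalization between arrays and 1223 and 2365 in the log10 ratios of the scanner software. Groups did not overlap for 3622 genes (21.3%). Without mouse 4 there were 2427 in place of 2434 called genes, 1308 higher and 1119 lower. Without mouse 3 there were 1544, and without the 3 livers of slide 3 there were 1132.

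The 1.5 wk difference was also counted by a gene's level in liver. Of the 1005 genes above the reference, 365 fell (36.3%) and 93 rose (9.25%), with a median difference of -0.56. Of the 888 below it, 336 rose (37.8%) and 37 fell, with a median of 0.35. In mouse 4 alone the medians were -0.22 and 0.09. With the scanner software's processed signals the median of the first set turned to 0.13, with 226 higher and 160 lower, while that of the second was 0.13 to 0.64 under every scaling. The same counts at 4 wks after the 10-day regimen were 67 up and 68 down of the 1005, and 30 up and 85 down of the 888. The ratio to the reference and this difference share the 1.5 wk arrays, and the narrower ratios and lower detection of slide 3, given above, moved with it.

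Enzymes that break down pyrimidines or attach sugars to other compounds were among the largest falls. Dpyd, the first enzyme of pyrimidine breakdown, stood at 5.47, 4.96, 5.24 and 5.31 at 24 hrs and at 1.13, 2.66, 0.62 and 2.38 at 1.5 wks, a difference of -3.55 ± 0.34 (adjusted p = 1.9e-05). It was at 4.86 to 5.32 at 24 hrs post-10-day and 4.39 to 5.39 at 4 wks, so the 1.5 wk livers were the low ones of all 18. The UDP-glycosyltransferases Ugt3a1 (-3.52 ± 0.33, adjusted p = 1.9e-05) and Ugt3a2 (-3.45 ± 0.36, adjusted p = 3.55e-05) fell alongside. The call of Ugt3a2 was lost with the processed signals (-0.25, adjusted p = 0.78) and the software's log10 ratios (-1.04, adjusted p = 0.209), its second probe differed by -0.03, and the 2 genes resemble each other in sequence.

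Cyp4a14 and Cyp4a10, fatty acid ω-hydroxylases that PPARα induces in fasting, also fell. Cyp4a14 was at 7.51, 7.30, 6.78 and 7.16 at 24 hrs and at 2.43, 3.49, 0.30 and 5.84 at 1.5 wks, a difference of -4.17 ± 0.87 (adjusted p = 0.00419). Mouse 4 was 1.35 below the 24 hr mean and the livers of slide 3 far more. The call was lost without slide 3, with the processed signals (-1.62, adjusted p = 0.198) and with the log10 ratios (-2.12, adjusted p = 0.216). Cyp4a10 was at 4.27, 3.45, 4.39 and 3.44 at 24 hrs and at 0.41, 0.57, 0.10 and 0.39 at 1.5 wks, a difference of -3.52 ± 0.32 (adjusted p = 1.42e-05). All 4 of its 1.5 wk livers were close together, mouse 4 included. A second probe of Cyp4a10 differed by -0.12, and the Cyp4a genes are similar enough that a probe may read several of them.

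Metallothioneins, small proteins that bind zinc and copper and respond to metals, glucocorticoids and fasting, were 2 of the 6 largest rises, Mt2 the first and Mt1 the fifth. Mt2 was at -3.96, -3.80, -4.29 and -4.16 at 24 hrs post-5-day and at 0.15, 0.83, -1.05 and -3.02 at 1.5 wks, a difference of 3.28 ± 0.97 (adjusted p = 0.0354). Mt1 was at -3.52, -3.67, -4.13 and -4.05 and then at -0.53, -0.50, -1.21 and -2.46, a difference of 2.67 ± 0.53 (adjusted p = 0.00318). Groups did not overlap in either gene, and mouse 4 was the lowest 1.5 wk liver in both, 1.03 above the 24 hr mean for Mt2 and 1.38 for Mt1. Without slide 3, mouse 4 alone stands for the group, with those differences of 1.03 and 1.38. The call of Mt2 was lost without any 1 of the 4 livers at 24 hrs or of the 3 on slide 3, where the difference stayed at 2.75 to 3.37 (adjusted p from 0.0639 to 0.101). It was also lost with blocks for the slide, as a random effect (3.13, adjusted p = 0.141), the replicate number (3.28, adjusted p = 0.0554) and the array position (3.28, adjusted p = 0.0561).

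The promoters of Mt1 and Mt2, which lie side by side on mouse chromosome 8, are shown because both genes were among the largest rises and set the same livers apart. Each run covers 250 bases before to 50 after the start of the RefSeq transcript in GRCm38.p6, 5′ to 3′ on the strand of the gene, and capitals mark matches on either strand to TGCACNC or TGCGCNC, the core of the metal response element. Mt1 is chr8:94178839-94179138 (plus strand, 3 matches) and Mt2 is chr8:94172368-94172667 (plus strand, 4 matches).
Mt1: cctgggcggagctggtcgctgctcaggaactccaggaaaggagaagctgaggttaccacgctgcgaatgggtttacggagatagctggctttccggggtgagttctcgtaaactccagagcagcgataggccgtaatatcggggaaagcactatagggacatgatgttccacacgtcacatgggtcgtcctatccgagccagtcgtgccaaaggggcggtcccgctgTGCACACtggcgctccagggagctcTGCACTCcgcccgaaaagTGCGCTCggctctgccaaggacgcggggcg
Mt2: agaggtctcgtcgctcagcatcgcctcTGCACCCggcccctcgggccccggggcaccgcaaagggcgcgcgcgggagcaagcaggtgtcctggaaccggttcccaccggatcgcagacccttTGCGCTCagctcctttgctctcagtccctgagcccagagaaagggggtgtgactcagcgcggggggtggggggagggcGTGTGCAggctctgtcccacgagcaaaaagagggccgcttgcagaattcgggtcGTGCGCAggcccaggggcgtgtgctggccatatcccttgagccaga
Of 32851 RefSeq promoters of this length, 25.7% held at least 1 match, 1.97% held 3 or more and 0.517% held 4 or more. A match describes the letters and does not show that a factor bound there.

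Among the other largest rises were genes with several probes. Khsrp, an RNA-binding protein, was at 0.61 to 0.84 at 24 hrs and at 4.29, 2.62, 4.27 and 4.19 at 1.5 wks, a difference of 3.12 ± 0.45 (adjusted p = 0.000322), while its second probe, not well above background in any of these livers, differed by 0.05. Arid5b, a chromatin regulator of fat tissue, rose by 3.00 ± 0.57 (adjusted p = 0.00219), with 0.18 for a second probe, well above background in 5 of the 8 livers, while its other 2 probes were so in none of them, and lost its call without slide 3 although mouse 4 alone was 3.02 higher. Fbxo2, a subunit of a ubiquitin ligase, rose by 2.71 ± 0.50 (adjusted p = 0.00188), with 0.43 for a second probe, well above background on 1 of 4 arrays at 24 hrs and on all 4 at 1.5 wks, while the third was so on 1 array. Ptms, a small acidic nuclear protein, rose by 2.66 ± 0.60 (adjusted p = 0.00806), and its second probe gave 3.13 (adjusted p = 0.000289).

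Disagreement between probes was widespread at 1.5 wks. Of 633 genes with at least 2 probes well above background on all 18 arrays, the brightest and the next probe gave differences from 24 hrs that lay over 1 apart on the log2 scale for 90 (14.2%), with a median distance of 0.39. The same comparison of probes gave 6 genes (0.948%) with a median distance of 0.16 for the regimens at 24 hrs, and 35 genes (5.53%) with 0.30 for 4 wks against 24 hrs after the 10-day regimen. Of 197 of these genes called at 1.5 wks by their brightest probe, the next probe had the same sign for 154 (78.2%) and was called too for 74. Uox is an example, with -3.74 by one probe and 0.06 by another. Where probes of a gene disagreed by this much, its value is that of the probe and not of the whole transcript.

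The lists of liver functions are described by their counts and medians, beside 7.06% of all genes higher and 7.25% lower at 1.5 wks, where the median over all genes was 0.01 and at most 0.09 from 0 under any scaling. Of 25 genes of the urea cycle and amino acid breakdown, 11 fell and 1 rose (median -0.81). The methyltransferase Gnmt fell by 3.32, the homogentisate dioxygenase Hgd by 3.15, the methionine adenosyltransferase Mat1a by 2.83, and Cth and Cbs of transsulfuration by 2.45 and 2.10, while Ftcd of histidine breakdown rose by 0.98. With the processed signals 5 fell and 5 rose (median -0.16), and without background correction 8 fell and 3 rose (median -0.36). Without slide 3, where mouse 4 alone stands for the group and is assumed to vary like the other groups, 6 fell and 0 rose (median -0.68). Of 15 hepatocyte markers 6 fell and 2 rose (median -1.09). Those that fell included Cyp2e1 (-2.80), the drug oxidase Cyp3a11 (-2.34), the thyroxine carrier Ttr (-2.04) and the hepatocyte transcription factor Hnf4a (-1.69), and those that rose were Apoa1 (1.61) and Ahsg (1.72), both secreted into plasma. The markers' mean linear ratio, 62.1 to 79.0 over the 24 hr livers and 63.4 to 93.3 over the 1.5 wk livers, did not fall with that count. The median of this list turned to as much as 0.95 without background correction, with the processed signals and with the software's log10 ratios, and was -0.67 in mouse 4 alone.

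Lists of both sides of the liver lobule held lower genes, with 8 of 15 genes of pericentral hepatocytes lower (median -1.14) and 6 of 14 of periportal hepatocytes (median -1.08), and 0 higher in either list. In mouse 4 alone the medians were -0.73 and -0.68. Targets of CAR and PXR had 10 lower and 1 higher of 19 (median -0.80). Genes of bile acid synthesis and transport had 6 lower of 17 (median -0.83), among them Cyp7a1, the rate-limiting enzyme of bile acid synthesis, by -2.34 (adjusted p = 0.00158) and the bile acid importer Slc10a1 by -1.41. Of 21 genes of cholesterol synthesis 7 were lower (median -0.35) and of 25 PPARα targets 9 were lower and 2 higher (median -0.34). Creb3l3, a fasting-activated factor, fell by 1.79, the peroxisomal Ehhadh by 1.54 and Cpt1a, which admits fatty acids to mitochondria, by 0.84, whereas the lipase inhibitor Angptl4 rose by 1.84. Gluconeogenesis and fasting genes had 4 lower of 13 (median -0.98), with Fbp1 at -2.71 the furthest. Lipogenic genes had 5 lower and 2 higher of 19 (median -0.42). Under every scaling these medians kept their sign, except that of the periportal list, which was 0.00092 with the processed signals. The counts leaned less to one side there, with 3 higher and 4 lower for pericentral genes and for CAR and PXR targets, 3 and 2 for periportal genes and for gluconeogenesis, and 2 and 3 for bile acid genes, whose median was -0.04. In mouse 4 alone they were -0.45 for CAR and PXR targets, -0.19 for bile acid genes, -0.03 for cholesterol synthesis and -0.20 for PPARα targets.

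Counts of plasma proteins turned with the scaling. Over all genes 7.06% were higher and 7.25% lower. Of 26 measured, 6 rose and 2 fell, with a median of 0.21. With Cy5 alone 1 was higher and 9 lower (median -0.90), and with the processed signals 15 were higher and 1 lower (median 1.33). Of the 23 acute phase genes 3 fell and 1 rose (median -0.29), while 3 were lower and 5 higher with the processed signals (median 0.59) and 3 lower and 2 higher with the log10 ratios (median 0.34). Orm1 and Orm2, the α1-acid glycoproteins, fell by 2.87 and 1.51.

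Lists of dividing cells, connective tissue and early response held more higher than lower genes, where 7.06% of all genes were higher and 7.25% lower. Of 24 cell cycle genes 10 rose and 0 fell (median 0.43), among them the replication helicase subunits Mcm6 (1.63) and Mcm5 (1.09), the ubiquitin carrier Ube2c (0.95) and the cyclin Ccnb2 (0.91). Of 16 markers of stellate cells and fibroblasts 7 rose and 2 fell (median 0.57), the collagen chain Col1a2 by 2.39, the smooth muscle actin Acta2 by 1.57 and the protease inhibitor Timp1 by 1.20, while Reln fell by 1.09. Of 20 immediate early genes 6 rose (median 0.52), with the cytokine brake Socs3 at 1.64 and the AP-1 subunit Junb at 1.50. These 3 lists are also low in liver against the reference, with medians of -1.38, -1.31 and -1.35. Their differences kept the sign under every scaling, and in mouse 4 alone the medians were 0.12, 0.23 and 0.22. Kupffer and endothelial markers went the other way, with 5 of 22 (median -0.14) and 4 of 12 (median -0.52) lower and 0 higher, Clec4f by -2.19 (adjusted p = 0.00188). The mean linear ratio of the Kupffer and leukocyte list was 3.26 to 4.34 at 24 hrs and 1.15 to 2.88 at 1.5 wks, and that of the endothelial list was 4.22 to 4.94 and then 1.61 to 3.27. Adipose markers had a mean linear ratio of 12.6 to 16.3 at 24 hrs and 24.9 to 46.9 at 1.5 wks, with 1 of 9 genes called higher and 1 lower, which is near those shares. That mean weighs the highest genes most, with 1 at a log2 ratio of 6.99 against a list median of 0.58. The median difference of the adipose list was -0.05, so the mean does not describe the list as a whole. The part of these cell types in the other lists was not tested.

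**Figure D3:**
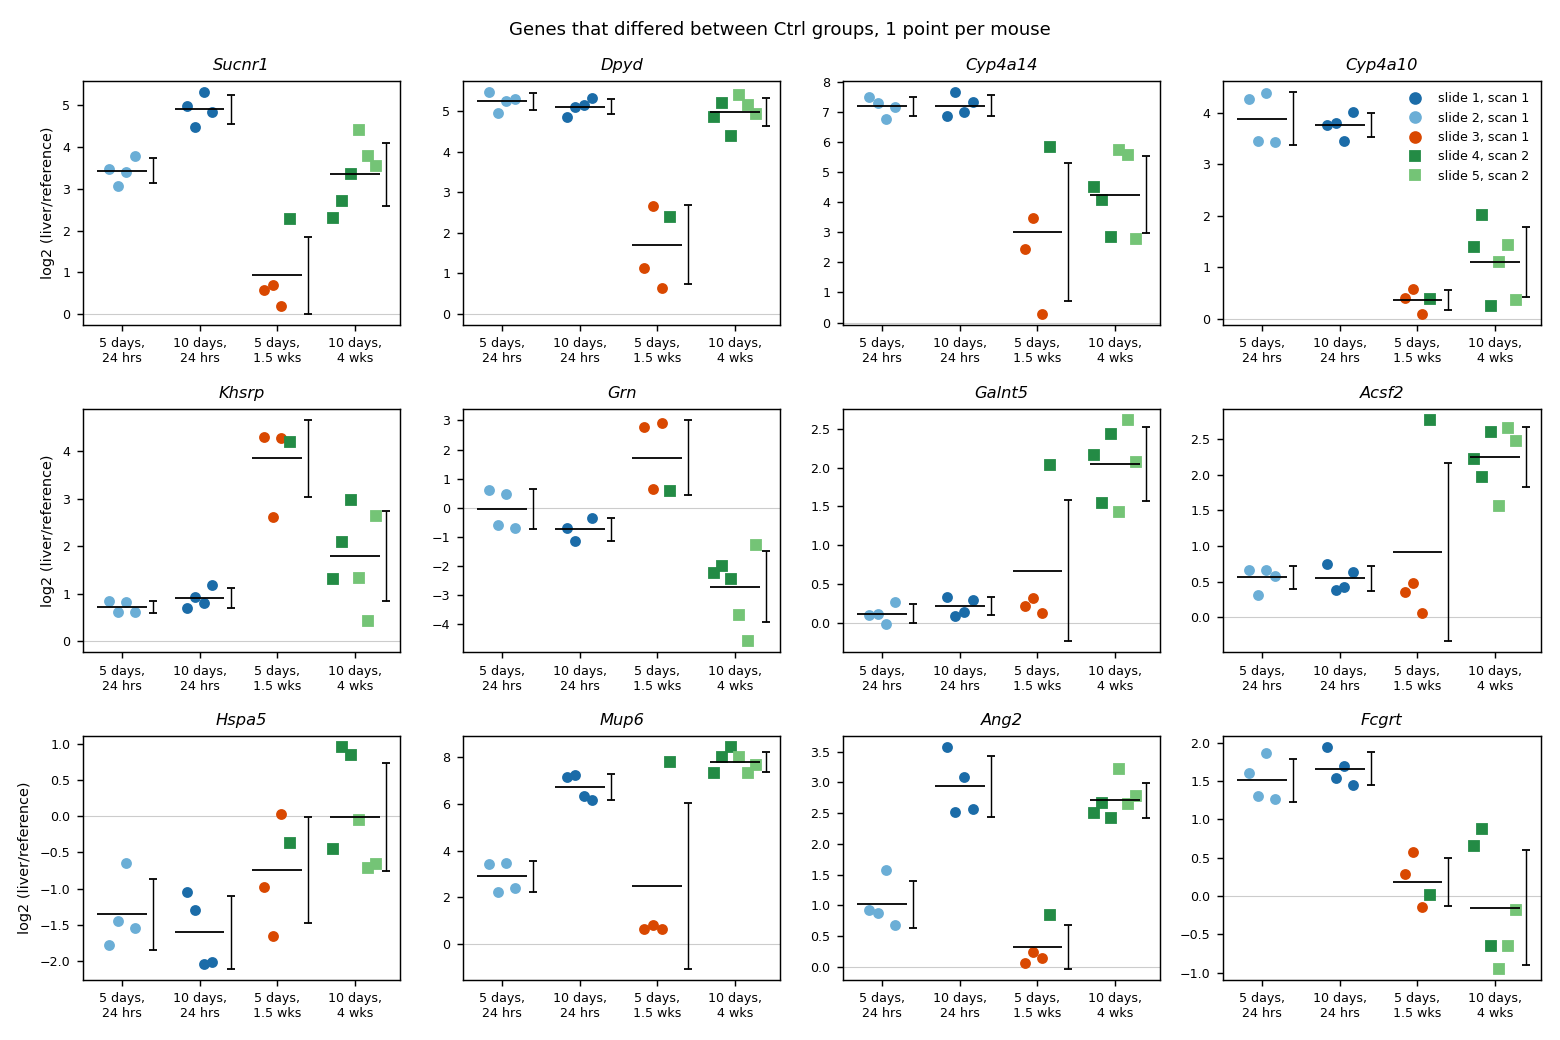
Log2 ratio of liver to reference of 12 genes named in the text, 1 point per mouse colored by slide, with the group mean as a line and the SD as an error bar. Dpyd is low only in the 1.5 wk livers, Galnt5 and Acsf2 are high only in the livers of scan 2 (slides 4 and 5), and Mup6 has 1 high and 3 low livers at 1.5 wks.

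After the 10-day regimen, 4 wks of rest were compared with 24 hrs. Here 777 genes were higher (4.57%) and 951 lower (5.59%) by limma's adjusted p, and 161 differed by 2-fold or more, 75 higher and 86 lower. Lower genes were also the larger group without background correction, with offset 16 and with Cy5 alone, whereas higher genes were it in 3 other scalings, with 1294 against 746 without normalization between arrays, 645 against 495 with the processed signals and 997 against 393 with the software's log10 ratios. Groups did not overlap for 1674 genes (9.84%). Leaving out mouse 1, 2 or 3 at 24 hrs gave 858, 1116 and 856 genes, and leaving out mouse 4 at 1.5 wks gave 1926. Since the 4 wk livers were on scan 2 and the 24 hr livers on scan 1, the scan and the rest cannot be told apart in this comparison, and a fit with the scan as a block called 46 genes. That block, here and in the paragraphs on this comparison, rests on mouse 4 at 1.5 wks, whose title is in doubt, as the 1 liver that shares its group with livers of the other scan.

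The genes with the largest rises followed the scan across groups. They were Galnt5, which adds sugars to mucins (1.84 ± 0.31, adjusted p = 0.00247), the olfactory receptor gene Olfr821 (1.78 ± 0.29, adjusted p = 0.0024), the mitochondrial acyl-CoA synthetase family member Acsf2 (1.70 ± 0.38, adjusted p = 0.012), Dennd1b, an exchange factor for Rab proteins (1.65 ± 0.27, adjusted p = 0.0024), the actin bundler Fscn3 (1.64 ± 0.32, adjusted p = 0.006) and the ATP-gated channel P2rx2 (1.62 ± 0.33, adjusted p = 0.00733). Galnt5 was at -0.02 to 0.33 in the 11 Ctrl livers of scan 1 and at 1.43 to 2.62 in the 7 of scan 2, which include mouse 4 of the 1.5 wk group at 2.03. In AggE livers it was at -0.17 to 0.65 on scan 1 and at 1.17 to 1.91 on scan 2. Scans were likewise separate in Ctrl and in AggE livers for Acsf2, Dennd1b, Olfr821 and P2rx2, and for Fscn3 in Ctrl livers only. With the scan as a block the differences were 0.02 for Galnt5, 0.075 for Dennd1b, 1.41 for Olfr821 and 1.09 for P2rx2. Those of Acsf2 and Fscn3 turned to -0.78 and -0.26, and limma called none of these genes (adjusted p from 0.557 to 0.999). Acsf2 and P2rx2 also lost their calls with the slide as a random block (adjusted p = 0.0742 and 0.0568). Several of these probes were dim: Olfr821 was well above background in 0, 1, 4 and 6 livers at 24 hrs post-5-day, 24 hrs post-10-day, 1.5 wks and 4 wks, and Dennd1b in 0, 1, 2 and 6.

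Over the whole set, the 7 Ctrl livers of scan 2 were all above the 11 of scan 1 for 142 of the 777 higher genes (18.3%), against 201 of all 17013 genes (1.18%). For the 75 higher by 2-fold or more it was 26 (34.7%), of which 25 had separate scans in AggE livers too. Of the 951 lower genes, 87 had all scan 2 livers below all scan 1 livers (9.15%), and of the 86 lower by 2-fold or more, 2 did (2.33%), against 129 of all genes (0.758%). In AggE livers the scans were separate too for 93 of the 142, but for 8 of the 87 and 0 of the 2. Over all genes this held for 116 of the 201 and 12 of the 129. Mouse 4 at 1.5 wks, on scan 2, lay beyond all 24 hr post-10-day livers in the called direction for 73.7% of the higher and 77.9% of the lower genes, against 27.6% and 28.6% of all genes. The called genes were chosen with the same 4 wk and 24 hr post-10-day livers, which raises all their shares in this paragraph beforehand. Shares over all genes are therefore not a fair baseline, and no conclusion is drawn from the distance between them.

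Fatty acid hydroxylases again headed the falls. Cyp4a14 was at 6.86, 7.66, 7 and 7.33 at 24 hrs post-10-day and at 4.50, 4.08, 2.85, 5.75, 5.57 and 2.77 at 4 wks, a difference of -2.96 ± 0.79 (adjusted p = 0.0281). Cyp4a10 was at 3.76, 3.81, 3.46 and 4.02 and then at 1.40, 2.02, 0.25, 1.1, 1.43 and 0.36, a difference of -2.67 ± 0.29 (adjusted p = 0.000229). Groups did not overlap in either gene, and the 4 wk livers spread more than the 24 hr livers. The call of Cyp4a14 was lost without any 1 of the 24 hr livers, at -3.08 to -2.81 (adjusted p from 0.0614 to 0.0749), without mouse 3 or 6 at 4 wks, at -2.68 and -2.66 (adjusted p = 0.0514 and 0.0507), and also without background correction, with offset 16 and without normalization between arrays, at -2.48 to -2.32 (adjusted p from 0.0574 to 0.151). Both calls were lost with the processed signals, at -1.19 and -1.33 (adjusted p = 0.333 and 0.325), and with the log10 ratios, at -1.26 and -0.99 (adjusted p = 0.473 and 0.517). Fcgrt, the receptor that rescues IgG and albumin from breakdown, was at 1.94, 1.54, 1.70 and 1.45 at 24 hrs and at 0.65, 0.87, -0.65, -0.95, -0.65 and -0.18 at 4 wks, a difference of -1.81 ± 0.30 (adjusted p = 0.00235). Depp1, an autophagy regulator that FoxO factors induce in fasting (-2.35 ± 0.54, adjusted p = 0.0131), Ddt, a relative of the cytokine MIF (-2.13 ± 0.40, adjusted p = 0.00457), and Pbld1 (-1.83 ± 0.27, adjusted p = 0.00162) completed the 6 largest. Pbld1 lost its call with the processed signals (-0.70, adjusted p = 0.529) and the log10 ratios (-0.59, adjusted p = 0.677), as did Depp1 (-2.27, adjusted p = 0.197, and -2.59, adjusted p = 0.16). With the scan as a block Cyp4a10 was at -2.70, Pbld1 at -2.34, Ddt at -2.11 and Fcgrt at -1.58, and their calls were lost (adjusted p = 0.106, 0.123, 0.472 and 0.471), while Cyp4a14 was at -6.73 and Depp1 at -5.14 (adjusted p = 0.0418 and 0.00967).

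For the lists at 4 wks, the shares over all genes were 4.57% higher and 5.59% lower. Of the 25 PPARα targets 5 fell and 1 rose, the latter being Fabp1 (0.82), with a list median of -0.14 against -0.01 over all genes. Besides Cyp4a10 and Cyp4a14, Cyp4a31 (-1.38) and Cpt1a (-0.57) fell. Of 21 genes of cholesterol synthesis 4 fell and 1 rose (median -0.14), among the falls Fdps, Pmvk and Fdft1 of the pathway by 1.47, 1.02 and 0.67. Lipogenic genes had 4 lower of 19 (median -0.26), with the liver pyruvate kinase Pklr (-0.84) and the lipogenic factor Srebf1 (-0.80) among them. Genes of oxidative phosphorylation had 9 lower and 4 higher of 37 (median -0.30), from Ndufa10 of complex I at -1.33 to Cox6c of complex IV at 1.15. The urea cycle enzyme Ass1 fell by 2.09 (adjusted p = 0.00788). Male-biased liver genes had 3 higher and 0 lower of 17 (median 0.60), namely Mup3 (1.26), Mup1 (1.13) and Cyp2f2 (0.80), and plasma proteins had 5 higher and 0 lower of 26 (median 0.38, and -0.08 with Cy5 alone). The medians of the other lists in this paragraph kept their sign under every scaling, but with the scan as a block that of the male-biased genes was -0.21. With the processed signals 1 PPARα target rose and 0 fell.

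Genes of endoplasmic reticulum stress, a list of chaperones, factors and enzymes that respond when unfolded protein builds up there, gave 4 higher and 0 lower genes of 20 at 4 wks (median 0.30), against 4.57% of all genes higher, and 0 of either with the scan as a block. Hspa5, the Hsp70 of the endoplasmic reticulum, was at -1.05, -1.30, -2.04 and -2.02 at 24 hrs post-10-day and at -0.45, 0.95, 0.85, -0.05, -0.72 and -0.66 at 4 wks, a difference of 1.59 (adjusted p = 0.0178). Hsp90b1, its Hsp90, was at -0.76, -0.75, -1.31 and -0.90 and then at -0.16, -0.04, 1.1, 0.33, 1.11 and 0.25, a difference of 1.36 (adjusted p = 0.00269). The groups did not overlap in these. Hyou1, a large Hsp70 relative, differed by 1.1 (adjusted p = 0.0264), at 0.25 to 0.73 and then 0.76 to 2.36, and Dnajc3, a cochaperone, by 0.59 (adjusted p = 0.0117), at 1.56 to 1.78 and then 1.82 to 2.48. In AggE livers the same difference was 1.48 for Hspa5 (adjusted p = 0.000734), 1.03 for Hsp90b1 (adjusted p = 0.0174), 0.88 for Hyou1 (adjusted p = 0.0205) and 0.29 for Dnajc3 (adjusted p = 0.245). Ctrl and AggE share no array here, but they share the order of scans, and 1 AggE liver at 4 wks lay on slide 5. The list's median was 0.23 to 0.36 over the scalings, with 4 to 6 genes higher and at most 1 lower, and 0.21 with the scan as a block, where 0 genes were called.

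Promoters of Hspa5, Hsp90b1 and Dnajc3 are shown because these genes were called in the same direction and hold a known element. Capitals mark matches on either strand to the endoplasmic reticulum stress response element (CCAAT, any 9 bases, then CCACG) in runs of RefSeq promoters cut as above. Hspa5 is chr2:34771840-34772139 (plus strand, 1 match), Hsp90b1 is chr10:86705395-86705694 (minus strand, 2 matches) and Dnajc3 is chr14:118937682-118937981 (plus strand, 1 match).
Hspa5: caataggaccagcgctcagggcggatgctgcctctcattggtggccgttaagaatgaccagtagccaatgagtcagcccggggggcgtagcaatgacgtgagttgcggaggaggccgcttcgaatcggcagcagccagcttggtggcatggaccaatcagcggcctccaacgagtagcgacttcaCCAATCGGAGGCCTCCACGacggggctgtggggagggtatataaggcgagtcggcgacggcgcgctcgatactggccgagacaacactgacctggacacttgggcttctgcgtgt
Hsp90b1: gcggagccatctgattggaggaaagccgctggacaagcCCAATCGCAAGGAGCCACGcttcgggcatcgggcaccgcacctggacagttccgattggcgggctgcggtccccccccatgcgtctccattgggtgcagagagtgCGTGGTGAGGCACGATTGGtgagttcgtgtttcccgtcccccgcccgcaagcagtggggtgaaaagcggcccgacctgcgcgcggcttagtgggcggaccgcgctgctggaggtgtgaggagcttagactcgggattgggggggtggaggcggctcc
Dnajc3: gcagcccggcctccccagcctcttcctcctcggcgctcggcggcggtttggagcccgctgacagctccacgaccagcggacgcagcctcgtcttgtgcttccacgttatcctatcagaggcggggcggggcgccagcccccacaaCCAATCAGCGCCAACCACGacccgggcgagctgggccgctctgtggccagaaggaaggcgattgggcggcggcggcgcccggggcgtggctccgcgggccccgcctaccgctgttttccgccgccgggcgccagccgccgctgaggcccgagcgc
The element was found in 39 of 32851 promoters (0.119%) and in 6 of the 17 genes of the list that had a promoter in the table. Such lists are drawn up from genes known to respond to this stress, and the matches say nothing of what acted on them here.

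**Figure D4:**
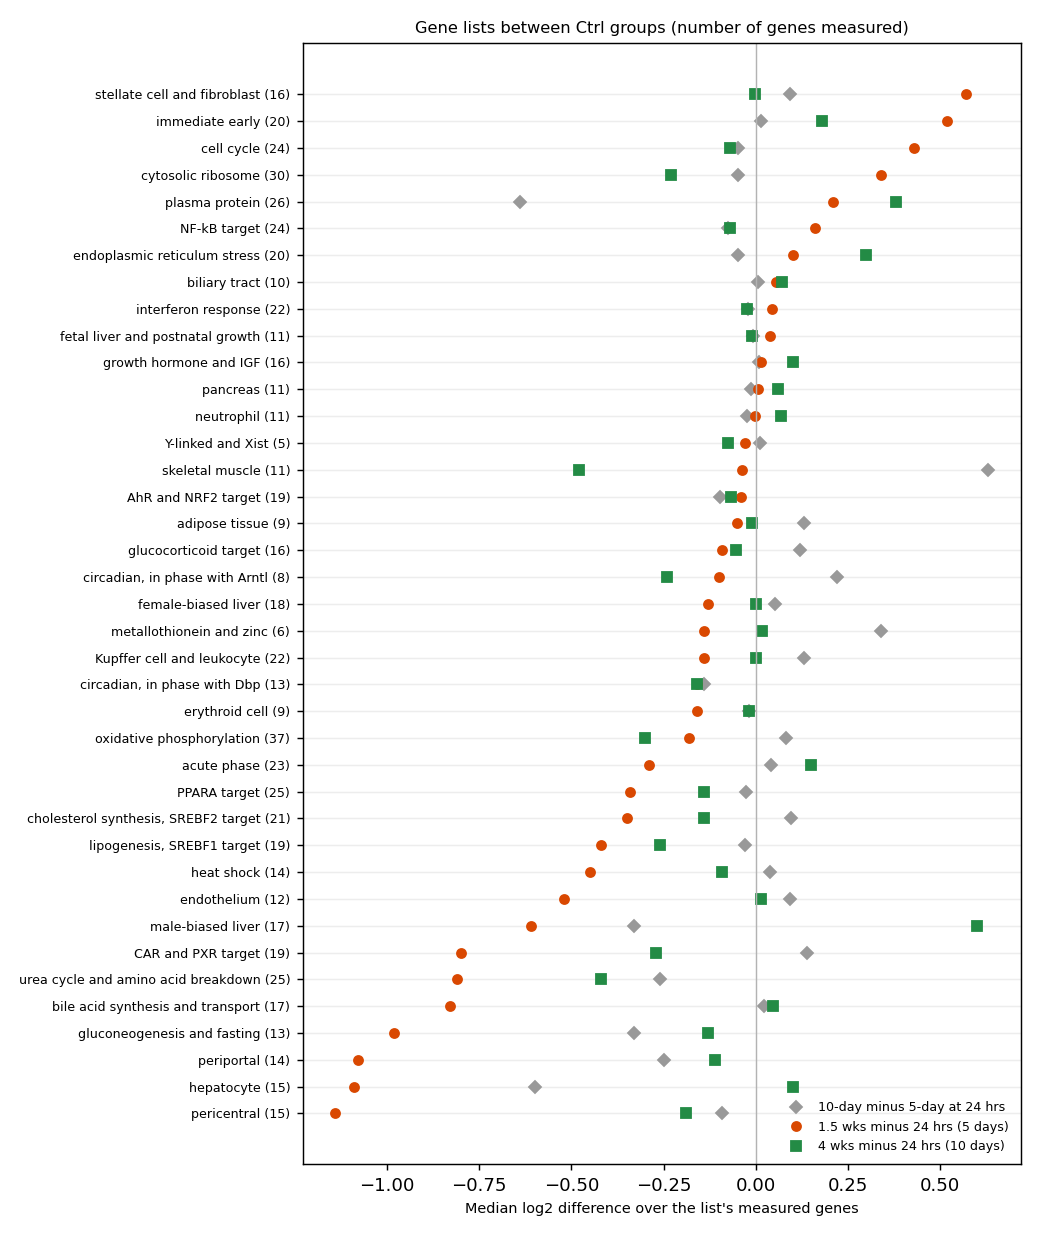
Median log2 difference over the measured genes of each list (number of genes in parentheses) for the regimen at 24 hrs (gray), 1.5 wks against 24 hrs after 5 days (orange) and 4 wks against 24 hrs after 10 days (green). The lists are ordered by the 1.5 wk difference, from pericentral genes at -1.14 to markers of stellate cells and fibroblasts at 0.57.

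The livers at 4 wks post-10-day and at 1.5 wks post-5-day were the only groups with arrays on a common slide. By limma's adjusted p, 2013 genes were higher at 4 wks (11.8%) and 2981 lower (17.5%), and 5277 in all were called without mouse 4. Groups did not overlap for 2701 genes (15.9%). With the software's log10 ratios, where the median over all genes moved to 0.29, the split turned to 3726 higher and 1270 lower, and with the processed signals it was 2175 and 1955. This comparison shares its arrays with both comparisons of rest given above and is not a further test of them. A fit of these 10 livers with the slide as a fixed block, which rests on mouse 4 of the 1.5 wk group as the only one on slide 4, called 9 genes by adjusted p and 1510 at an unadjusted p under 0.05. Without slide 3, 531 genes were called.

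Cyp3a16 and Cyp3a44, steroid and drug oxidases, were higher at 4 wks by 4.32 ± 0.49 (adjusted p = 4.39e-05) and 3.88 ± 0.45 (adjusted p = 4.81e-05), although for Cyp3a44 the call was lost with the processed signals (0.28, adjusted p = 0.726) and the log10 ratios (0.24, adjusted p = 0.821), a second, dark probe gave 0.17, and the Cyp3a genes are close in sequence. Serpina3c, a serine protease inhibitor, was higher by 3.72 ± 0.44 (adjusted p = 5.38e-05) and the glucuronosyltransferase genes Ugt2b1 and Ugt2b5 by 3.56 ± 0.33 (adjusted p = 9.74e-06) and 3.43 ± 0.37 (adjusted p = 2.58e-05). Grn, which encodes the growth factor progranulin, was lower by 4.44 ± 0.62 (adjusted p = 0.000225), but by 0.91 (adjusted p = 0.085) on its second probe. Lars2, the mitochondrial leucyl-tRNA synthetase, was lower by 3.85 ± 0.65 (adjusted p = 0.000593), the flow-responsive factor Klf2 by 3.47 ± 0.42 (adjusted p = 6.27e-05), Ptms by 2.85 ± 0.55 (adjusted p = 0.00165), Syt10 by 2.80 ± 0.33 (adjusted p = 4.96e-05) and the histone chaperone Anp32b by 2.48 ± 0.28 (adjusted p = 4.2e-05). A second probe of Klf2 gave 0.32, and that of Syt10 was well above background in 1 liver of the 10. The call of Ugt2b5 was lost with the log10 ratios (1.31, adjusted p = 0.0788) and those of Grn and Lars2 without slide 3, at -3.29 and -3.78 (adjusted p = 0.0855 and 0.107). With the slide as a fixed block none of these 11 genes was called by limma (adjusted p from 0.093 to 0.74), with differences of the same sign. Grn and Ptms lack mouse 3 at 24 hrs post-10-day, whose spots were marked as outliers.

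Of all genes, 11.8% were higher and 17.5% lower at 4 wks than at 1.5 wks. Cell cycle genes were lower for 20 of 24 (median -0.67), NF-κB targets for 13 of 24 (median -0.35) and ribosomal protein genes for 14 of 30 (median -0.51), with 0, 0 and 1 higher. Targets of CAR and PXR were higher for 11 and lower for 3 of 19 (median 1.19), led by the sulfotransferase Sult1d1 (2.48) and the oxidases Cyp3a25 (2.43) and Cyp2c37 (2.20). Endothelial markers were higher for 8 of 12 (median 0.60), with the sinusoidal lectin Clec4g at 2.22 and the VEGF receptor Kdr at 1.54. Kupffer and leukocyte markers were higher for 11 and lower for 3 of 22 (median 0.31), with Clec4f at 2.19, the complement subunit C1qc at 1.62 and Cd5l, a secreted scavenger receptor, at 1.57, and with the leukocyte antigen Ptprc at -0.60. Within slide 4 the list medians were -0.29 for the cell cycle, 0.22 for CAR and PXR targets, 0.35 for endothelium, 0.14 for Kupffer cells and leukocytes, -0.03 for NF-κB targets and -0.17 for the ribosome, each nearer to 0. Medians kept their sign under every scaling for the cell cycle and for Kupffer cells and leukocytes. That of the ribosome was -0.0076 with the log10 ratios, with 10 higher and 4 lower genes. Medians turned for CAR and PXR targets with the processed signals and the software's log10 ratios (-0.10 and -0.08), for endothelium with the processed signals (-0.0025) and for NF-κB targets with the log10 ratios (0.26).

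Differences also arose within a group. In the 4 wk group, the livers of slide 5 and slide 4, of mice treated alike, differed in 784 genes (4.61%) by limma's adjusted p, 237 higher and 547 lower on slide 5, of which 65 by 2-fold or more. The split turned to 126 higher and 33 lower with the log10 ratios and to 77 and 28 with a replicate block, and the processed signals gave 1 gene. Lars2 was at 0.68, -0.12 and -1.26 on slide 4 and at -2.96, -3.93 and -1.32 on slide 5, a difference of -2.51 (adjusted p = 0.0234). The count moved from 32 to 1227 as single 4 wk livers were left out.

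The spread between mice of a group was small for most genes. The pooled SD within groups had a median of 0.16 on the log2 scale over all genes and of 0.26 over the 4276 genes well above background on all 18 arrays, with 95% of the latter at 0.58 or less. Over these bright genes it was 0.17 and 0.18 at 24 hrs post-5-day and 24 hrs post-10-day, 0.29 at 1.5 wks and 0.27 at 4 wks. The groups accounted for a median of 51.1% of the variance of a bright gene. With 4 to 6 arrays a group, these SDs are themselves imprecise.

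The 15 genes with the largest pooled SD were headed by Mup6 at 1.71, through the 1.5 wk livers given above. Igfbp1, a carrier of insulin-like growth factors that rises in fasting and falls with insulin, was next at 1.64. It was at 5.01 to 5.80 at 24 hrs post-10-day, at 3.73, 3.77, 2.51 and 5.31 at 24 hrs post-5-day, and at 3.47, 0.91, 2.89, 8.06, 3.31 and 4.01 at 4 wks, where mouse 4 lay highest of all 18 livers. Mt2 followed at 1.50. Its 4 wk livers fell into mice 1 and 4, at -0.51 and 0.19, and the other 4, at -4.34 to -4.02. Mt1 set the same 2 mice apart, at -1.87 and -1.95, from the other 4 at -4.41 to -3.70. Neither gene differed between 4 wks and 24 hrs by the test, with 0.88 for Mt2 and 0.16 for Mt1.

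Next in order were Cyp4a14 (1.33), the lysolipid transporter Mfsd2a (1.13), the retinoic acid hydroxylase Cyp26b1 (1.13), Lars2 (1.09), Grn (1.04), Cyp2a12 (1.00), the carboxypeptidase subunit Cpn1 (0.99), the water channel Aqp8 (0.97), Cyp2e1 (0.96), the hepatocyte factor Onecut1 (0.95), Ptms (0.93) and the antimicrobial peptide Leap2 (0.93). A single liver set some of these. Cyp26b1 was at 3.55 in mouse 1 at 4 wks and at -0.35 to 1.05 in the other 5, and Cyp2a12 was at 0.94 in mouse 3 at 24 hrs post-10-day and at 4.43 to 5.00 in the other 3.

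**Figure D5:**
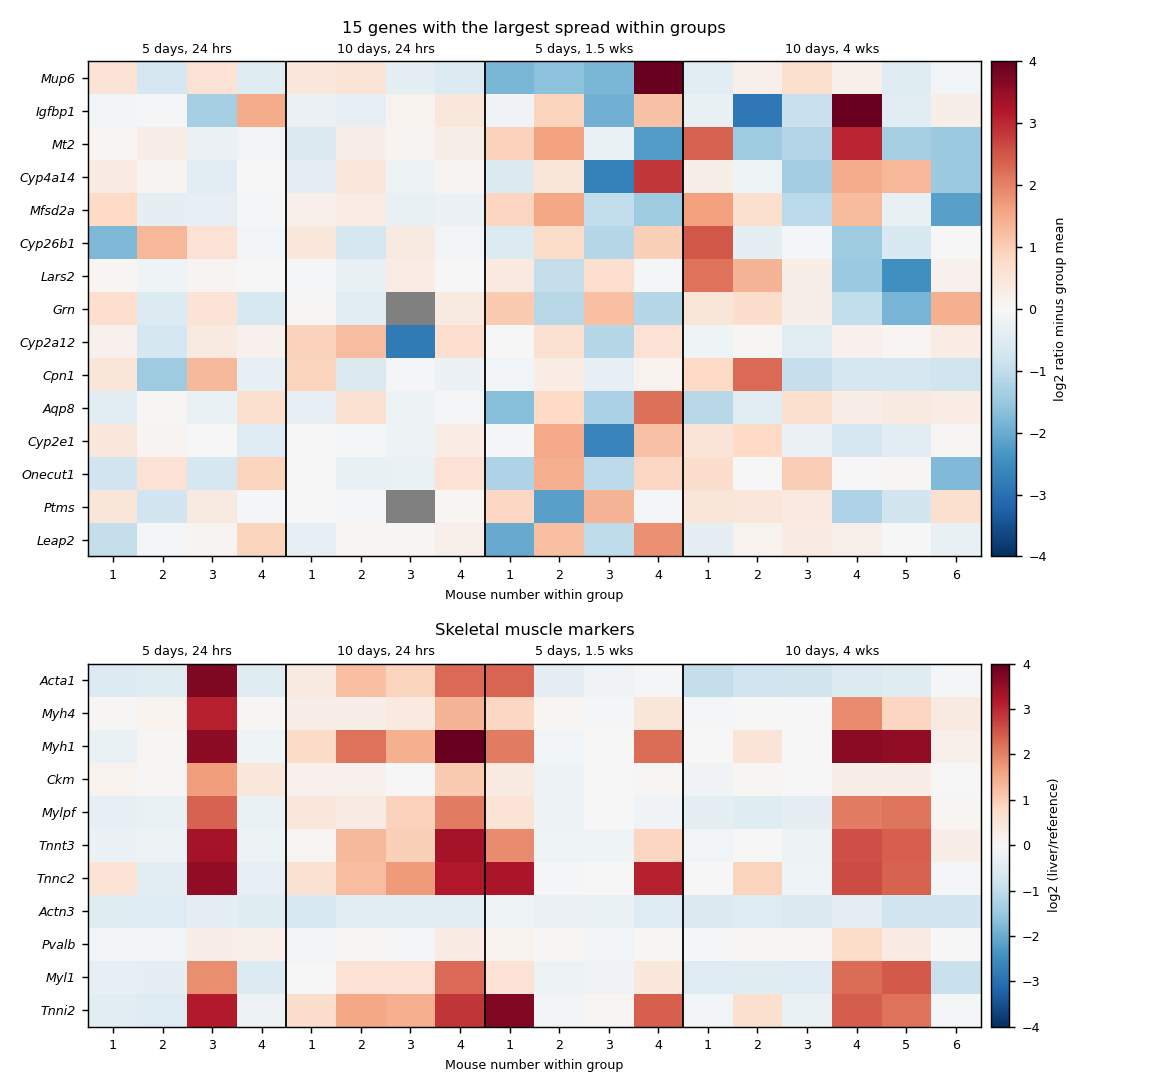
Variation between mice, 1 column per liver in group order. The upper panel shows, as the log2 ratio minus its group mean, the 15 genes with the largest pooled SD, from Mup6 (1.71) to Leap2 (0.93), and the lower panel shows the log2 ratio of the 11 skeletal muscle markers, which were high in 4 livers of 3 groups (gray: spot left out).

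Skeletal muscle markers had the largest median spread within groups of all lists. Over the 11 measured, the median pooled SD was 1.16, and none differed between groups by the F test, though 1 was lower at 4 wks than at 1.5 wks. The median of the list was 3.10 in mouse 3 at 24 hrs post-5-day, 2.27 in mouse 4 at 24 hrs post-10-day, and 2.04 and 2.13 in mice 4 and 5 at 4 wks. In mouse 3 at 24 hrs post-5-day the actin gene Acta1 was at 3.74 and the myosin gene Myh1 at 3.57. The list's mean linear ratio ran from 0.86 to 7.13 at 24 hrs post-5-day, from 1.22 to 6.20 at 24 hrs post-10-day, from 0.91 to 3.98 at 1.5 wks and from 0.85 to 4.23 at 4 wks.

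Some genes that cycle with the day, picked after their values were seen, were high in the same mice at 4 wks. Usp2, a deubiquitinase whose level cycles with the day, was at 0.99 and 1.64 in mice 1 and 2 and at -0.49 to -0.22 in the other 4. Klf9, a glucocorticoid-responsive factor that also cycles, was at 0.98 and 0.99 against -0.25 to -0.14. Ciart, a repressor of the clock, was at 0.23 and 0.23 against -0.95 to -0.43. The same 2 mice were the high ones in each. The median of the 8 clock genes in phase with Arntl was 0.27 and -0.05 in them against 0.20 to 0.38 in the other 4, and that of the 16 glucocorticoid targets was 1.00 and 0.55 against -0.37 to 0.06. These differences were not tested, and the time of death of single mice is not given in the labels. Of 13 clock genes in phase with Dbp, 1 fell between 24 hrs and 1.5 wks and 1 between 24 hrs and 4 wks, near the 7.25% and 5.59% of all genes, namely Hlf by 1.39 (adjusted p = 0.00398) and Nr1d1 by 0.40 (adjusted p = 0.0469).

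The AggE livers of the same regimens and rests, which share no array with the Ctrl livers, were fitted alone. One of them at 1.5 wks lay on slide 3 and 1 at 4 wks on slide 5, beside Ctrl livers. Labels of some AggE mice disagree on the regimen, and the regimen given with the tissue in their description was followed. After the 5-day regimen, 1551 genes were called in the same direction at 1.5 wks, which is 63.7% of the genes called in Ctrl mice and 44.8% of the 3465 called in AggE mice (20.4% of all). After the 10-day regimen, 455 were shared at 4 wks, which is 26.3% of the Ctrl calls and 24.9% of the 1826 AggE calls (10.7% of all). For 4 wks post-10-day against 1.5 wks post-5-day it was 3441, or 68.9% and 56.9% of 6047 (35.5% of all), and between the regimens at 24 hrs 0 genes were shared, with 509 called in AggE mice (2.99%). Whatever the Ctrl and AggE mice of a group had in common, including the slides' day of scan, age and rest, is part of these shares.

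The difference between Ctrl and AggE mice in these contrasts, tested with limma in 1 fit of all 39 arrays, was past the limit for 6 genes between the regimens (0.0353%), 16 at 1.5 wks (0.094%), 14 at 4 wks (0.0823%) and 0 between 4 and 1.5 wks (1662 at an unadjusted p under 0.05). Metallothioneins were among them. Mt1 rose by 2.67 from 24 hrs to 1.5 wks in Ctrl mice and differed by -1.26 in AggE mice, a gap of 3.93 (adjusted p = 0.0159). From 24 hrs to 4 wks it differed by 0.16 in Ctrl and -3.38 in AggE mice, a gap of 3.53 (adjusted p = 0.0243), and Mt2 by 0.88 and -4.62, a gap of 5.50 (adjusted p = 0.0294). The acute phase genes Saa1 and Saa3 differed from 24 hrs to 1.5 wks by -0.03 and 0.44 in Ctrl mice and by -3.88 each in AggE mice, with gaps of 3.85 (adjusted p = 0.0026) and 4.32 (adjusted p = 7.67e-05). For Cyp4a31 the gap at 1.5 wks had the opposite sign, with -1.95 in Ctrl and 0.80 in AggE mice, a gap of -2.75 (adjusted p = 0.0236). The gap of Cyp4a14 was -5.14 and not past the limit (adjusted p = 0.0506). Cyp4a10 was lower in AggE livers too, at 1.06 to 3.22 at 24 hrs post-5-day and at 0.15 to 1.44 at 1.5 wks. Between 4 wks and 24 hrs the gaps of Cyp4a10 (-2.28, adjusted p = 0.0672) and Fcgrt (-1.02, adjusted p = 0.48) were not past the limit.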

How the data were processed

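Liver RNA (Cy5) of each mouse and a reference RNA (Cy3) were hybridized to 1 array, without dye swap. The authors deposited, per spot, median intensities of spot and local background as Feature Extraction (11.5.1.1 in the processing notes) read them, unnormalized, and a second set of intensities that it had background-corrected and dye-normalized. From those processed signals the authors' software made the deposited log10 ratios, Cy5 over Cy3, which were 0 on 10.7% to 37.3% of the spots of a Ctrl array. Symbols came from RefSeq (GRCm38.p6, used for names and promoters), which named 24372 of 24939 RefSeq probes among 41174 probes.

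The median intensities of all 39 arrays were corrected with limma's normexp (offset 50), loess-normalized within arrays and quantile-normalized between arrays, with controls left out, outlier spots (0.295% to 1.46%) set to missing and the spots of a probe averaged. Mean spot values, planned at first, are not in the columns used here, and medians took their place. A gene is its probe with the highest average signal over the 18 Ctrl arrays. Group means were fitted with limma 3.58.1 (R 4.3.3) to the 18 Ctrl arrays and compared with its moderated t or F, or with treat at 2-fold against the reference. P-values were Benjamini-Hochberg adjusted over all named probes and called at 0.05 or less. Figures were drawn with matplotlib 3.10.9 (Python 3.11.15). Replicates are separate mice by the labels. Same-numbered mice did not deviate together (mean r 0.01 over 24 pairs), so the numbers do not pair them. In simulated data of 16741 genes, 50 genes changed by 1 on the log2 scale were recovered at 74% for the regimens, 70% for 1.5 wks, 86% for 4 wks and 76% for 4 wks against 1.5 wks. The simulated noise was normal, with the same SD of a gene in every group and no effect of slide or scan. Only genes well above background on all 18 Ctrl arrays were changed, so these shares are not the power of the real comparisons.

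The mice, gene lists and tests were chosen with earlier results of these data known, so that none is an independent choice. Named genes are the 15 highest and 10 lowest ratios to the reference among probes well above background, up to 6 rises and 6 falls per comparison among called genes whose groups do not overlap, the 10 largest ranges of group means, the 15 largest pooled SD, and called members of the lists, of which some are not reported here. Probe pairs, clock and muscle genes of single mice and the genes of the Ctrl and AggE difference were named after their values were seen. The alternatives, with effects given at the end, were other background corrections, scalings, probes, blocks for slide, scan, replicate number and array position, array weights and leaving out arrays.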

Additional observations from a re-analysis of the deposited data

Results flagged for a closer look

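In groups of 4 to 6 livers, 21 of 305 sets of values of the named genes and array measures (6.89%) held 1 value far from the others by Dixon's ratio. Some of these genes were picked for their spread within groups and some vary together, so no chance share is set beside this. Mouse 4 at 1.5 wks post-5-day held 5 of them: Mup6 was at 7.81 against 0.66 to 0.84, Cyp2c39 at 3.29 against 0.12 to 0.48, Acsf2 at 2.77 against 0.065 to 0.48, Fscn3 at 2.16 against 0.21 to 0.32 and Galnt5 at 2.03 against 0.12 to 0.32. This is the liver on slide 4 and scan 2 whose title differs from those of its group mates, and the part of slide, scan or label in these values cannot be told apart.

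At 24 hrs post-5-day, mouse 2 stood apart in Mup1 (8.96 against 8.52 to 8.57), Scd2 (-4.56 against -4.80 to -4.78), Lgals3 (-4.11 against -4.54 to -4.49) and the SD of its log2 ratios (1.06), and mouse 1 in Fbxo2 (2.34 against 1.63 to 1.66) and Ugt2b5 (5.69 against 5.27 to 5.32). At 24 hrs post-10-day, Mug1 was at 6.70 in mouse 1 (others 7.42 to 7.5), Olfr821 at 0.046 in mouse 1 (others -0.14 to -0.11), Anxa1 at -4.18 in mouse 2 (others -4.48 to -4.44) and Cyp2a12 at 0.94 in mouse 3, whose array also had 1.46% outlier spots. At 1.5 wks, Khsrp was at 2.62 in mouse 2 (others 4.19 to 4.29). At 4 wks, Cyp26b1 was at 3.55 in mouse 1, and mouse 6 stood apart in Ugt3a2 (4.68 against 3.96 to 4.21), Onecut1 (1.40) and the share of spots well above background (70.4%).

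Mt1 differed between Ctrl and AggE mice in its change from 24 hrs to 1.5 wks, with 2.67 in Ctrl and -1.26 in AggE mice, a gap of 3.93 (limma, adjusted p = 0.0159). The part of the slides in this gap was not tested.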

How the results depend on the processing

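Signals were low and few arrays stood behind each group, which limits the precision. Of 2168 values of named genes under the alternatives, 2079 kept direction and side of the limit, 87 lost the call and 2 reversed, namely Acsf2 (-0.78) and Fscn3 (-0.26) at 4 wks with the scan as a block. Counts that moved by over 1.5 times follow, and the cause was not tested.

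For the regimens (1 gene), counts were 4 without background correction, 6 with offset 16, 3 with processed signals, 42 with the log10 ratios, 59 with Cy5 alone, 34 with the scan as a block, 42 with array weights, 42 at 2-fold and an unadjusted p, 2 with array position as a block, 45 without slide 3 and 45 without the 1.5 wk group, and 0 without normalization between arrays, with Aquantile, with bright probes, in 1 fit of 8 groups, with the slide as a random block and with a replicate block. For 1.5 wks (2434), they were 1342 with the slide random, 683 and 625 at 2-fold with unadjusted and adjusted p, and 1132 without slide 3. For 4 wks (1728), they were 1140 with processed signals, 849 with bright probes, 327 with the slide random, 46 with the scan as a block, 1074 with the replicate block, 192 and 161 at 2-fold, 1026 with slide 4 mice only and 3188 with slide 5 mice only. For 4 against 1.5 wks (4994), they were 1884 with bright probes, 260 with the scan as a block, 678 and 666 at 2-fold, 9 with the slide as a fixed block, 531 without slide 3 and 3024 with slide 4 mice only. For the F test (5738), they were 2506 with bright probes, 3275 with the slide random, 3003 with the scan as a block, 1181 and 1126 at 2-fold, 2919 without slide 3 and 2577 without the 1.5 wk group. For the slides within the 4 wk group (784), they were 255 without background correction, 248 with offset 16, 1 with processed signals, 159 with the log10 ratios, 1492 without normalization between arrays or with Aquantile, 354 with Cy5 alone, 241 with bright probes, 260 in 1 fit of 8 groups, 12 with the slide random, 105 with the replicate block, 103 with weights and 118 and 65 at 2-fold. For liver against reference (1893), they were 3022 without background correction, 5740 with processed signals (2269 higher, 3471 lower) and 6057 with the log10 ratios (2121 and 3936). The median pooled SD (0.26) was 0.33 with the log10 ratios. Genes shared with AggE mice were 2 without background correction, 2 with offset 16, 1 with processed signals, 25 with the log10 ratios and 26 with Cy5 alone for the regimens, 664 without normalization between arrays or with Aquantile for 1.5 wks, 131 with processed signals, 115 without normalization between arrays or with Aquantile and 116 with bright probes for 4 wks, and 2240, 1026 and 1164 in the same order for 4 against 1.5 wks.

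Leaving out 1 liver gave 0 to 34 genes for the regimens, 1544 to 2621 for 1.5 wks (1544 without mouse 3 at 1.5 wks), 856 to 2069 for 4 wks (858, 1116 and 856 without mice 1, 2 and 3 at 24 hrs), 3356 to 5277 for 4 against 1.5 wks, 4402 to 6009 for F, 32 to 1227 for the slides (65, 32, 1227, 387 and 342 without mice 1, 2, 3, 5 and 6), 1836 to 1915 against the reference and an SD of 0.25 to 0.27. The replicate block changed no other count by over 1.5 times. Liver against reference could not be computed with Cy5 alone, and the genes shared with AggE mice were not run on a normalization of Ctrl arrays alone.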
